A study of Mus musculus with 7 samples.

Results

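The interferon regulatory factor (IRF) genes are a family of transcription factors named for their control of interferon genes. The data on 8 mouse members, Irf1, Irf2, Irf3, Irf4, Irf5, Irf7, Irf8 and Irf9, were drawn from bulk ATAC-seq of HPC7 cells. In ATAC-seq a transposase cuts accessible DNA and attaches sequencing adapters to the ends, and an open chromatin region (OCR) is a stretch where reads from the tagged fragments pile up. HPC7 is a stem cell factor-dependent mouse haematopoietic progenitor line, derived from embryonic stem cells that express Lhx2. The 7 libraries, numbered 1, 2, 4, 5, 6, 7 and 8 as in the labels, form 1 group, and no untreated or contrasting group was defined. The study says that they came from separate culture batches of this 1 line, and the labels give all of them the same description. The peak names inside the lists start with VD in libraries 1, 2 and 4 and with EtOH in libraries 5, 6, 7 and 8, which the labels do not explain. Whether the cultures were treated alike is therefore not known, and a spread between libraries may include a difference in treatment. A member's window was its gene body plus 75 kb on either side in mm10 with GENCODE M21, and every OCR overlapping it was kept. The windows held 237 of the 144931 OCRs obtained by merging the peaks of all 7 libraries.

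All IRF proteins bind DNA through a helix-turn-helix domain that reads GAAA repeats. IRF1 and IRF2 act on the same interferon-stimulated response element (ISRE), IRF1 mostly as an activator and IRF2 often as its competitor. IRF3 and IRF7 are phosphorylated downstream of nucleic acid sensors and switch on the type I interferon genes, and IRF5 drives inflammatory cytokine genes downstream of Toll-like receptors. IRF9 is a DNA-binding subunit of the complex that answers type I interferon. IRF4 and IRF8 are the blood-restricted members, and they bind with PU.1 at composite ETS-IRF elements. IRF8 is needed for monocytes and dendritic cells, and IRF4 is best known in activated lymphocytes and plasma cells. The far downstream flank of Irf8 is known to carry enhancers used in myeloid cells.

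Sequences are shown for the regions on which the results below turn, read from GRCm38.p6, which is mm10, on the + strand and without bases annotated as untranslated region. Distances are those of a summit from the gene start in the direction of transcription, with a minus sign for upstream. Lower case is sequence without a match and capitals mark matches to the motifs searched, described further on. The first 4 are the bases before the RefSeq start of a member, taken from the RefSeq promoter table. They show the strongest promoter (Irf2), the promoter whose only match is a gamma-activated site (Irf1), the weakest promoter with an OCR (Irf8) and the promoter without one (Irf4).
Irf2 promoter, chr8:46739495-46739731: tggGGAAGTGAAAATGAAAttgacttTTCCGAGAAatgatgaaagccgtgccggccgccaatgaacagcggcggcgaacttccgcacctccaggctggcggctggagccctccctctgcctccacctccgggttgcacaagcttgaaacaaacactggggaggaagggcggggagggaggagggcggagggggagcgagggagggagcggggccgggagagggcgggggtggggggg
Irf1 promoter, chr11:53769764-53770013: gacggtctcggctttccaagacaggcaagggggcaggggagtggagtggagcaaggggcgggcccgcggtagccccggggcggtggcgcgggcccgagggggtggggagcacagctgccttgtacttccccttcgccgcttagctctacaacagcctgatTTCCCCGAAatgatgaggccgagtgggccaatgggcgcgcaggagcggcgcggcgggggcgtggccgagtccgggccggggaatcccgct
Irf8 promoter, chr8:120736108-120736357: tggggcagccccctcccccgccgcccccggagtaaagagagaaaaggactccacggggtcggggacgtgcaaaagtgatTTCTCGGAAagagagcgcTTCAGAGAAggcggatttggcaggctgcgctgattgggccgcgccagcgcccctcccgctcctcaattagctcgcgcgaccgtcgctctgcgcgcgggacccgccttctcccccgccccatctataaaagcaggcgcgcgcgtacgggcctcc
Irf4 promoter, chr13:30748983-30749225: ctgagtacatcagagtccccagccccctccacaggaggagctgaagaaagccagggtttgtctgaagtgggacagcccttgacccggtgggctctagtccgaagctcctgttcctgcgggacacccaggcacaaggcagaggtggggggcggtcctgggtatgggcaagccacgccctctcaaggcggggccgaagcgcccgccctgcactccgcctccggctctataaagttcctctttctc

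The next 7 are centred on or reach up to the summit, the point of highest signal, of an OCR away from the first start of its gene. They are the strongest distal OCRs of Irf8, Irf2, Irf1 and Irf4, a second distal OCR far downstream of Irf8, the OCR inside Irf8 with an ISRE match, and the internal start of Irf5.
Irf8 at 60.0 kb, chr8:120796306-120796506: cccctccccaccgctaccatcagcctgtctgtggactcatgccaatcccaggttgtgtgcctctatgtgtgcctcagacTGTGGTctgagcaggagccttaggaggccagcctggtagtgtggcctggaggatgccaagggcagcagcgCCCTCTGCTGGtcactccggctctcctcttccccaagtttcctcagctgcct
Irf8 at 95.9 kb, chr8:120832114-120832314: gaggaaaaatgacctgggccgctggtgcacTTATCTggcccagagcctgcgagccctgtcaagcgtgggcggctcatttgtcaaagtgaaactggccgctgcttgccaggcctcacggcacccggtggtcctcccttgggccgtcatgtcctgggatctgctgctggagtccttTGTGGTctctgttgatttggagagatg
Irf8 at 15.9 kb, chr8:120752071-120752370: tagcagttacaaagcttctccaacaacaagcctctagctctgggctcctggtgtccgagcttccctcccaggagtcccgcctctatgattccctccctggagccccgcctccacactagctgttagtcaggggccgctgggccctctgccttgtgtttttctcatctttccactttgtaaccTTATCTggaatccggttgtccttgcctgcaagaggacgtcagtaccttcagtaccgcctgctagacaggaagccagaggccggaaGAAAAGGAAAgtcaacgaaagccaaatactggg
Irf2 at 79.4 kb, chr8:46819038-46819238: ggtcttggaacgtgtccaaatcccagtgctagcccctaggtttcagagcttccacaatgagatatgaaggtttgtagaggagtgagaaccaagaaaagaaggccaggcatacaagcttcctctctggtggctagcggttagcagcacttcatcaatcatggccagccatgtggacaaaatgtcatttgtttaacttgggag
Irf1 at -32.8 kb, chr11:53737122-53737322: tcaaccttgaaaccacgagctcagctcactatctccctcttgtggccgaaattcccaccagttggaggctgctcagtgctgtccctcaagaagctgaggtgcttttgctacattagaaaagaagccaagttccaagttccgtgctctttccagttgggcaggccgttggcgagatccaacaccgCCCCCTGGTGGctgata
Irf4 at 17.8 kb, chr13:30766977-30767153: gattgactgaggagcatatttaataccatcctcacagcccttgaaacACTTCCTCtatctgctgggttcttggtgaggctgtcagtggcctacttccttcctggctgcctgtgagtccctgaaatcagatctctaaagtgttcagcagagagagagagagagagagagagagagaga
Irf5 at 2.60 kb, chr6:29529126-29529281: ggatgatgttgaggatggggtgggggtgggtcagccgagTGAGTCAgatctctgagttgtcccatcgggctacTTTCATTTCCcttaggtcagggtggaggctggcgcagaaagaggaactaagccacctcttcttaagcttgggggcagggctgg

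The peak lists held between 84593 peaks (library 6) and 132852 (library 1). Intensity is the fold enrichment that the authors' peak caller gave, the reads at the summit over a background set for the whole library. That background was 20.4 reads in library 1 and 4.44 to 7.45 reads in the others, so library 1 was the deepest at summits. As fold enrichment is not normalized between libraries, genes were compared within a library, and the percentile of a peak among all peaks of its library is given beside it. The cells showed open promoters of the progenitor markers, with an OCR in all 7 libraries at 10 of 10 genes (Kit, Cd34, Gata2, Tal1 and Runx1 among them). No promoter OCR in all 7 libraries was found at any of 4 B cell, 4 T cell and 3 epithelial markers, whereas 3 of 4 erythroid, 2 of 4 macrophage and monocyte, 1 of 4 dendritic cell and 2 of 3 fibroblast markers had one.

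The promoters of 7 of the 8 IRF genes were open in all 7 libraries, and that of Irf4 was open in none. A promoter OCR is one within 1 kb of a start of a protein-coding transcript of the gene. Over all 21853 protein-coding genes, 54.5% had a promoter OCR in all 7 libraries and 40.0% had one in none. Of the 8 members, Irf1, Irf2, Irf3, Irf5 and Irf9 had a promoter in the top 25% of peaks in every library, as did 47.5% of all protein-coding genes.

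Irf2, on chromosome 8, had the highest promoter. Its fold enrichment was lowest at 86.7, in library 6, with a median of 127.6 and a highest value of 139 in library 1, a mean of 118 ± 20.3 (SD, n = 7) at percentile 96.8 ± 0.635. Its main promoter OCR, chr8:46737998-46742276, was broad at 4279 bp. Irf3, which shares its promoter region on chromosome 7 with Bcl2l12, ranged from 74.9 over a median of 89.98 to 118, with a mean of 93.1 ± 16.1 at percentile 94.9 ± 1.07. Irf1 on chromosome 11 ranged from 65.9 over a median of 93.2 to 116, with a mean of 91.9 ± 19.1 at percentile 94.7 ± 0.993. The ranges of these 3 promoters overlap, and library 6 held the lowest value of each.

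Irf5 and Irf9 formed the next level. The promoter of Irf5 on chromosome 6 ranged from 45.5 over a median of 73.0 to 77.6, with a mean of 66.5 ± 12.1 at percentile 91.7 ± 1.39. That of Irf9 on chromosome 14 ranged from 46.5 over a median of 65.2 to 73.1, with a mean of 62.2 ± 9.42 at percentile 91.2 ± 0.998. Both ranges lie wholly above those of Irf7 and Irf8 with promoters of 1 kb. Irf7, the interferon-inducible partner of IRF3, had a promoter fold enrichment from 11.6 over a median of 16.4 to 19.4, with a mean of 16.3 ± 2.64 at percentile 74.8 ± 3.34. Irf8 ranged from 8.76 over a median of 12.5 to 16.6, with a mean of 12.2 ± 2.61 at percentile 68.4 ± 5.32. These were not peaks at the limit of detection, since the Irf8 summit held 55 reads in library 6 (95% Poisson interval 41.4 to 71.6, counting error only) and up to 273 reads elsewhere. Irf4 had no peak within 1 kb of its starts in any library.

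**Figure D1:**
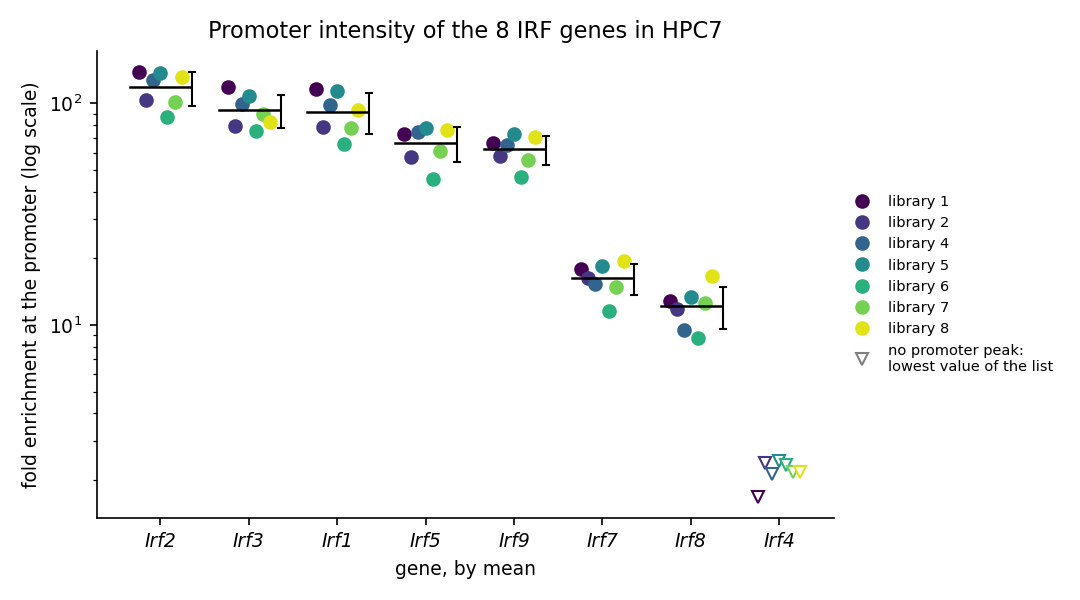
Fold enrichment at the promoter (log axis) of each IRF gene, 1 point per library, with the mean as a line and 1 SD as the bar beside it (n = 7). Irf2, Irf3, Irf1, Irf5 and Irf9 lie between 45.5 and 139, Irf7 and Irf8 between 8.76 and 19.4, and Irf4 has no promoter peak, so open triangles mark the lowest fold enrichment in each list.

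The order was tested for all 28 pairs of genes with an exact sign-flip permutation test of the log2 difference within a library, two-sided, which with 7 libraries gives no p under 0.0156. For Irf4 the lowest fold enrichment of each list stood in for the missing peak. The 7 pairs with Irf4 were thereby decided beforehand, and they are not read as tests. Of the other 21 pairs, 19 differed after Benjamini-Hochberg adjustment over the 28 pairs (exact test, adjusted p = 0.0168 each, the same direction in 7 of 7 libraries and so under either prefix of the peak names). With promoters of 3 kb, which take in a stronger OCR upstream of Irf7, Irf1 minus Irf7 fell from 2.49 to 0.71 and Irf7 minus Irf9 was -0.16 and no longer called (exact test, adjusted p = 0.113). Adjusted over the 21 pairs alone, the same 19 had an adjusted p of 0.0173 (exact test). Irf2 exceeded Irf3 by 0.34 ± 0.17 on the log2 scale, Irf1 minus Irf2 was -0.37 ± 0.08 (SD, n = 7, exact test), and Irf7 exceeded Irf8 by 0.43 ± 0.16. The last difference depends on the promoter taken, since it was 2.20 with promoters of 3 kb (exact test, adjusted p = 0.0182) and -0.45 with the starts of all transcripts (exact test, adjusted p = 0.0168). Irf1 and Irf3 were not told apart, with a difference of -0.03 ± 0.14 and Irf3 higher in 5 of 7 libraries (exact test, adjusted p = 0.609). Irf5 and Irf9 were not told apart either, with Irf5 higher by 0.09 ± 0.08 in 5 of 7 libraries (exact test, adjusted p = 0.0648).

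The place of Irf2 at the top moved with the scaling of its chromosome. Over protein-coding promoters with an OCR in all 7 libraries, the median fold enrichment on chromosome 8, which carries Irf2 and Irf8, was 1.39 ± 0.04 times that of the median autosome (SD, n = 7), while distal OCRs of chromosome 8 stood at 0.968 ± 0.0306. The ratio was 0.931 for chromosome 11, 0.864 for chromosome 6 and between 1.00 and 1.04 for chromosomes 7, 13 and 14. When each promoter was divided by the ratio of its chromosome, an alternative chosen after seeing the data, Irf1 exceeded Irf2 by 0.21 (exact test, adjusted p = 0.0175), Irf2 minus Irf3 was -0.09 (adjusted p = 0.219) and Irf5 exceeded Irf9 by 0.30 (adjusted p = 0.0175). What the ratio of chromosome 8 stems from was not tested.

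In Irf5 and Irf7 the strongest promoter summit stood at an internal coding start and not at the first one. These starts were singled out after their values were seen, and summits within 500 bases of a start were read. Irf5 had a summit at the start 2.66 kb inside the gene in 7 libraries, with 66.5 ± 12.1 (SD, n = 7). At its first starts it had a separate summit in 6 libraries, with 28.1 ± 6.80 (SD, n = 6) and values from 16.7 to 37.7. Library 1 called 1 peak across both. The internal summit was higher in each of the 6 libraries, and its sequence above carries an ETS-IRF and an AP-1 match.

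At Irf7 the summit lay near a coding start 1.19 kb inside the gene in all 7 libraries, with 16.3 ± 2.64. At the first starts a separate summit was called in 5 libraries, libraries 2, 5, 6, 7 and 8, and reached only 2.82 to 3.67. Library 1 called 1 peak across both, and in library 4 no peak reached the first starts. The ranges of the first and the internal summit did not overlap. At Irf2, OCRs within 1 kb of an internal coding start 53.8 kb into the gene had 26.4 ± 7.46 and 11.3 ± 3.09, both in all 7 libraries, but a summit within 500 bases of that start was called in 1 library only.

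**Figure D2:**
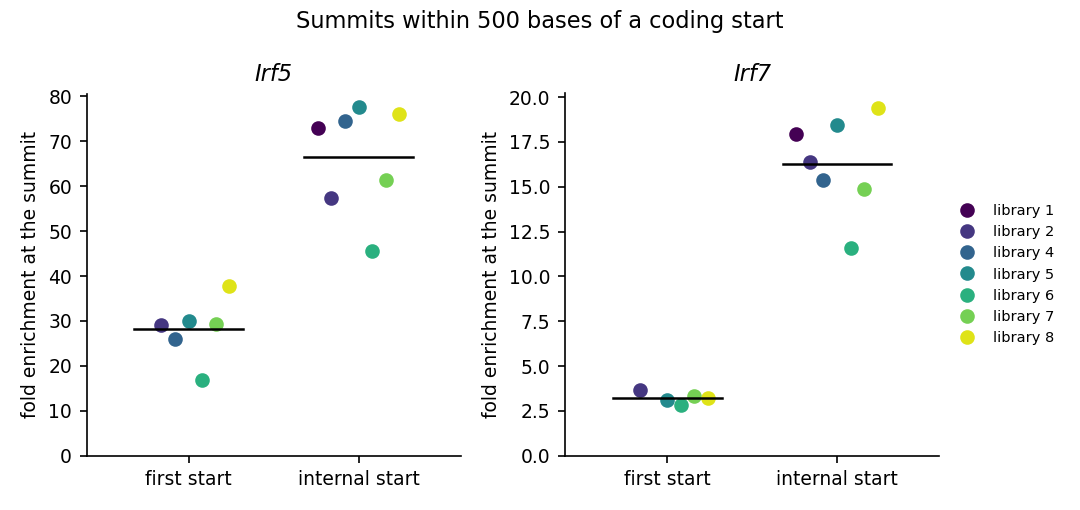
Fold enrichment of the summit within 500 bases of the first coding starts and of an internal coding start of Irf5 and Irf7, 1 point per library with the mean as a line. In every library with both summits the internal one is higher, with Irf5 at 45.5 to 77.6 against 16.7 to 37.7 and Irf7 at 11.6 to 19.4 against 2.82 to 3.67.

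The 237 OCRs were unevenly spread over the windows. Irf2, whose gene is 107727 bp long, had 64 OCRs, 30 of them in all 7 libraries, and 99.1% of protein-coding genes had fewer distal OCRs in their window. Irf8 had 37 (19 in all 7), with more distal OCRs than 89.4% of protein-coding genes, and Irf3 had 45 (24 in all 7), of which 23 were distal, that is more than 1 kb from every annotated transcript start. Irf1 had 25 (15), Irf9 22 (15), Irf7 21 (11) and Irf5 17 (8). Irf4 had 6 (3), all on the downstream side of its gene, and none in its 75 kb upstream flank. The median protein-coding gene had 19 OCRs, and Irf4 and Irf5 lay below it. Window lengths differ, and that of Irf2 was the longest at 258 kb. Per 100 kb, Irf3 had the most OCRs (29.0) and Irf2 had 24.8, while Irf2 had the most distal ones (22.5).

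Support by libraries varied with the class of OCR. Of the 237 OCRs, 125 were found in all 7 libraries, 52.7% against 46.2% of all merged OCRs. Distal OCRs, those outside 1 kb of every annotated start, were in all 7 libraries in 70 of 164 cases, 42.7% against 41.6% of all distal OCRs. Intergenic OCRs of the windows were in all 7 libraries in 14 of 40 cases, 35.0% against 42.4% of all intergenic OCRs, and in a single library in 15 (37.5% against 18.8%). Of all distal OCRs of the windows 41 were in a single library (25% against 19.3%). Within 1 kb of a start it was in all 7 for 55 of 73, 75.3% against 66.8%. The 70 shared distal OCRs had a median mean percentile of 62.7, beside 60.4 for all shared distal OCRs, and 17 of them (24.3%) had a mean percentile of 75 or more, beside 26.0%. Of the 49 OCRs found in a single library, 35 were in library 1, the deepest one, which also held 64.9% of all such OCRs.

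**Figure D3:**
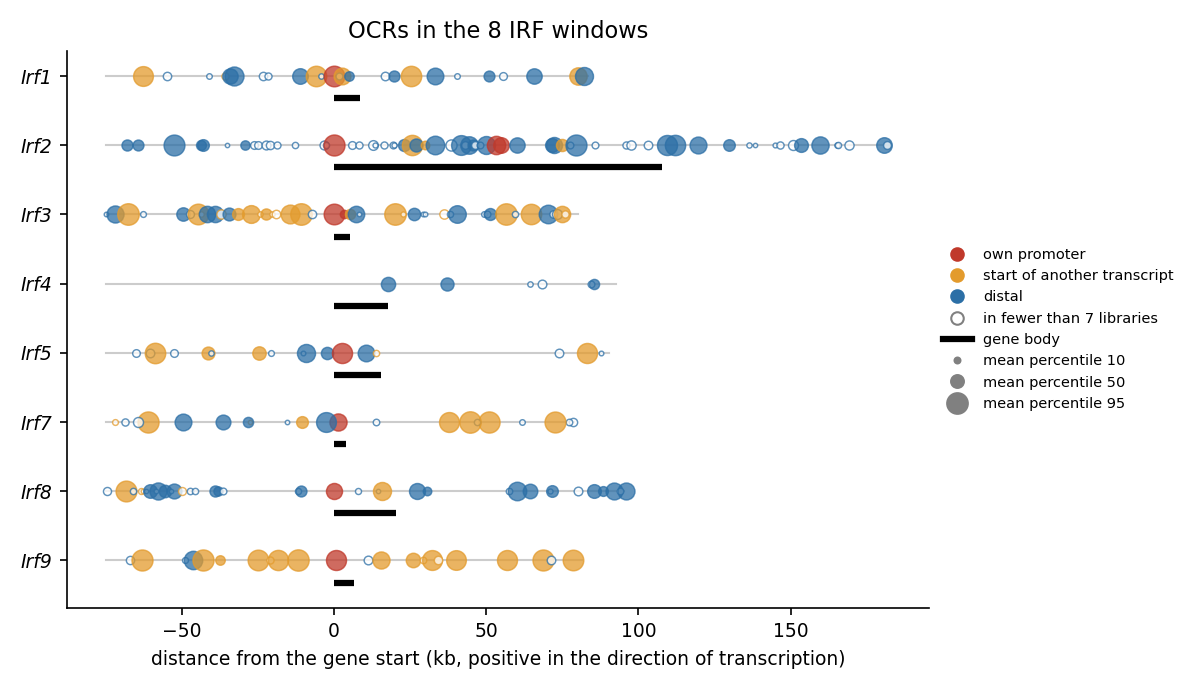
OCRs of the 8 windows by distance of the summit from the gene start in kb, in the direction of transcription. Windows are the gene body and 75 kb on either side, and an OCR overlapping an edge can have its summit outside. Point size follows the mean percentile, open points are OCRs in fewer than 7 libraries and black bars are gene bodies. The Irf2 window holds 64 OCRs, the Irf4 window holds 6 and has none upstream of the gene.

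The promoter was compared with the strongest distal OCR of the same window by the exact sign-flip test, adjusted over the 8 genes. The promoter was higher in 7 of 7 libraries at Irf1, Irf3, Irf5 and Irf9, as at 36.4% of all protein-coding genes. The distal OCR was higher in 7 of 7 at Irf7 and Irf8, and also at Irf4, where the value in place of the missing promoter peak had to be lower. Among all protein-coding genes the distal OCR was higher in 7 of 7 at 43.1%, a share that counts genes without a promoter peak in the same way. Among those with a promoter OCR in all 7 libraries, the promoter was higher in 7 of 7 at 66.7% and the distal OCR at 23.1%, beside 4 and 2 of the 7 members that have one. These 6 members had an adjusted p of 0.0179 (exact test, from the smallest p that the design allows; 0.0182 with Irf4 left out), and Irf2 did not pass. The counts describe the members and are not a difference from other genes.

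At Irf8 the strongest distal OCR, chr8:120795851-120797123, lay 60.0 kb downstream of the gene start and 39.7 kb beyond the gene end, in an intron of Gm20388, a gene model that runs across the whole window. Its fold enrichment ranged from 19.7 over a median of 26.5 to 39.8, with a mean of 27.5 ± 6.73 (SD, n = 7) at percentile 82.6 ± 2.79. The lowest value there was above the highest promoter value of 16.6. Promoter minus distal was -1.17 ± 0.13 on the log2 scale (exact test, adjusted p = 0.0179). The call depends on which starts count as promoter. With the starts of all Irf8 transcripts, an alternative added after seeing the data that takes in an OCR at 15.9 kb described below, the difference was -0.29 and did not pass (exact test, adjusted p = 0.0893). The sequence of this OCR printed above holds a RUNX match and a match to the CTCF core.

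Beyond 20 kb downstream of the Irf8 gene end, 7 distal OCRs were found in all 7 libraries. After the one at 60.0 kb, the highest were at 95.9 kb (15.2 ± 2.69, from 12.3 to 20.5) and at 92.1 kb (14.8 ± 2.42, from 12.5 to 18.3), both above the promoter in 7 of 7 libraries, a count given without a test. Those at 64.3 kb (8.79 ± 1.69), 85.3 kb (7.67 ± 1.41), 71.6 kb (5.95 ± 1.72) and 88.5 kb (4.55 ± 0.793) were lower. With the starts of all transcripts, the OCR at 15.9 kb (22.6 ± 5.73) counts as promoter, and those at 95.9 and 92.1 kb lay below it in every library. The SDs at 95.9 and 92.1 kb overlap widely, and both ranges lie below the lowest value at 60.0 kb except for library 8 at 95.9 kb, with 20.5. The OCR at 95.9 kb overlaps the edge of the window, while its summit and its printed sequence lie past that edge. Nearer to the gene, OCRs at 27.1 kb (11.9 ± 2.30) and 30.5 kb (4.01 ± 0.735) were also in all 7 libraries.

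On the upstream side of Irf8 the strongest distal OCR stood at -57.8 kb, with 16.2 ± 3.95, and was nearer to the start of Cox4i1, a cytochrome oxidase subunit gene. It too was above the Irf8 promoter in 7 of 7 libraries, a count given without a test. The promoter region of Cox4i1 and Emc8 was the highest OCR of the window, with 101 ± 15.9. Within the gene, an OCR 15.9 kb from the start lay at the start of a non-coding Irf8 transcript, so it was not counted as distal or as coding promoter. It had 22.6 ± 5.73, from 14.7 to 33.0, at percentile 79.7 ± 3.799, and its sequence above holds an ISRE match. Taking it as promoter, with the starts of all transcripts, reversed the order of Irf7 and Irf8 given above.

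**Figure D4:**
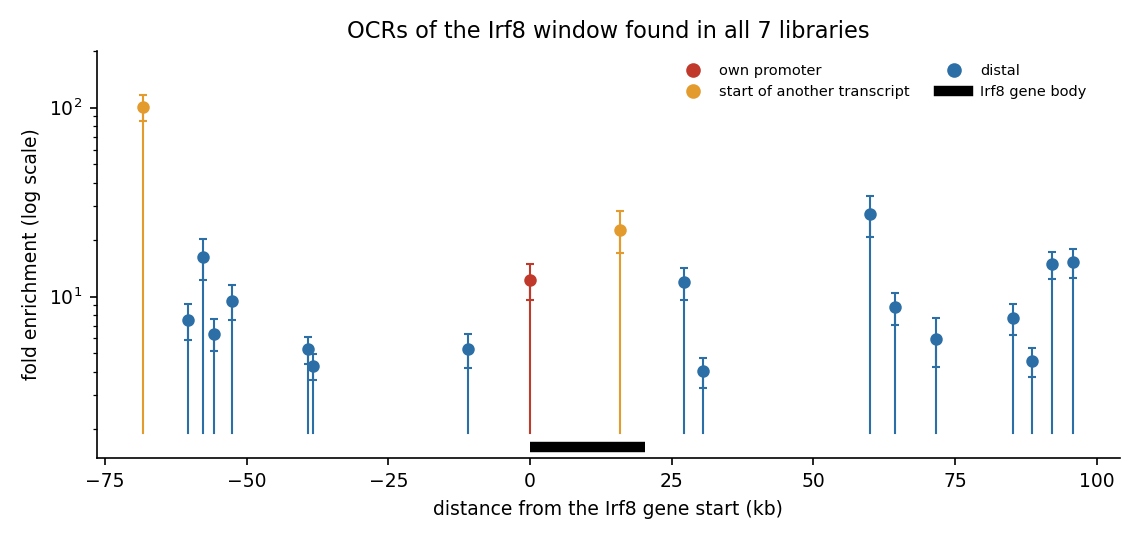
Mean fold enrichment (log axis) with 1 SD (n = 7) of the 19 OCRs of the Irf8 window found in all 7 libraries, by distance of the summit from the gene start in kb. The promoter, at 12.2, stands below the OCRs at 15.9 kb (22.6) and 60.0 kb (27.5), and 7 OCRs lie beyond 20 kb past the gene end.

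Irf7 had its strongest distal OCR close by. chr7:141268356-141270136 had its summit at -2.65 kb, in an untranslated region of Cdhr5, a neighbouring cadherin gene, so that its sequence is not printed. Its fold enrichment ranged from 36.1 over a median of 54.9 to 74.3, with a mean of 56.2 ± 12.1 (SD, n = 7) at percentile 89.98 ± 1.97. It stood above the promoter, at most 19.4, in every library, and the log2 difference of promoter minus distal was -1.78 ± 0.19. The next distal OCR, at -49.6 kb in Deaf1, had 15.0 ± 3.399. With promoters taken as 3 kb on either side of a start, the OCR at -2.65 kb became a promoter OCR. The one at -49.6 kb, 2826 bp from a Deaf1 start, no longer counted as distal. The difference turned to 2.54, against an OCR at -36.7 kb in Deaf1 (9.89 ± 2.89) (exact test, adjusted p = 0.0156).

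Irf4 had the fewest OCRs of the 8 windows, 6, while Irf9 had fewer distal ones, 5. The strongest OCR of the Irf4 window, chr13:30766690-30767439, lay at the 3′ end of the gene with the summit 0.077 kb past it. It ranged from 5.01 over a median of 8.64 to 13.8, with a mean of 8.77 ± 2.67 at percentile 58.1 ± 10.7, and held 31 to 185 reads at the summit. The second, 37.1 kb from the gene start in the non-coding gene Gm29675, had 7.19 ± 1.62. With the lowest fold enrichment of each list in place of the absent promoter peak, promoter minus distal was -1.95 ± 0.51 on the log2 scale, a difference that depends on that value. The printed stretch of this OCR holds a PU.1 match.

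At Irf2 the promoter and the strongest distal OCR were not told apart with promoters of 1 kb. The intronic OCR chr8:46817895-46819958, 79.4 kb into the gene, ranged from 81.0 over a median of 118 to 135, with a mean of 114 ± 19.6 at percentile 96.5 ± 0.628. Promoter minus distal was 0.05 ± 0.09 on the log2 scale, higher at the promoter in 5 of 7 libraries (exact test, adjusted p = 0.141). With promoters of 3 kb this intronic OCR reached within 3 kb of an annotated Irf2 start and no longer counted as distal. Promoter minus distal was then 0.17, against the OCR at -52.6 kb, and passed (exact test, adjusted p = 0.0156). An OCR at -52.6 kb, chr8:46686388-46687783 in the non-coding gene Gm16675, ranged from 80.4 to 124 with a mean of 104 ± 14.8, and its summit moved by an SD of 1.07 bp between libraries. Of the 24 distal OCRs of Irf2 found in all 7 libraries, 9 had a mean percentile of 75 or more, beside 26.0% of all such OCRs. As a count this was more than in any other of the 8 windows, but Irf2 also had the most such OCRs. The only such OCR of Irf9 reached that percentile too. The sequence at 79.4 kb holds none of the motifs searched. With both values divided by the ratios of chromosome 8, promoter minus distal was -0.48 (exact test, adjusted p = 0.0156).

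With OCRs placed by their whole extent, Irf1, Irf3, Irf5 and Irf9 had promoters well above their distal OCRs. At Irf1 the strongest distal OCR, at -32.8 kb, had 34.5 ± 7.62, from 21.7 to 45.1, with a CTCF core match in the sequence above. The promoter exceeded it by 1.42 ± 0.14 (log2). The second, 82.0 kb downstream in Gm12216, had 22.1 ± 5.09. The difference at Irf1 depends on leaving out OCRs within 1 kb of another annotated start. Such OCRs had 86.5 ± 20.6 at -6.11 kb, near Mir7671, and 79.7 ± 15.7 at 25.3 kb, near a Gm12216 start. The Irf1 promoter had 91.9 ± 19.1. At Irf3 the strongest were 70.4 kb downstream in Nosip (28.3 ± 7.001) and 40.5 kb downstream in Prr12 (18.5 ± 3.20), with a difference from the promoter of 1.74 ± 0.29. When peaks were placed by their summits, the OCR at -44.8 kb in Tsks (93.7 ± 16.1), 1466 bp from a start, counted as distal. The Irf3 promoter minus this OCR was -0.01 (exact test, adjusted p = 0.938).

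At Irf5 an intergenic OCR at -9.26 kb had 22.9 ± 5.44, from 14.1 to 29.6, and the promoter was higher by 1.55 ± 0.12. The second lay 10.3 kb into the gene, in a stretch annotated as untranslated region, with 14.5 ± 3.47 and an ETS-IRF match. Irf9 had a single distal OCR in all 7 libraries, at -46.4 kb, with 26.3 ± 6.29, and the promoter was higher by 1.26 ± 0.20. The second, ranked with a missing peak counted as the lowest fold enrichment of its library, lay at -67.2 kb, was absent from library 6 and had 3.92 ± 0.641 in the other 6. An OCR at 11.2 kb, named after its values were seen and found in 4 libraries, had 3.95 ± 0.383 there.

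**Figure D5:**
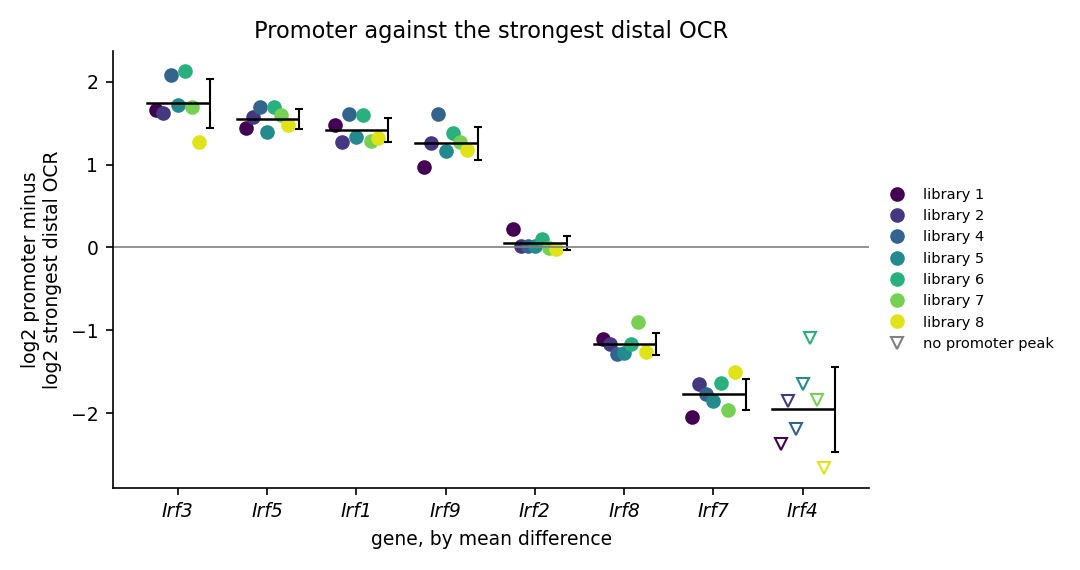
Log2 fold enrichment of the promoter minus that of the strongest distal OCR in the same window, 1 point per library, with the mean and 1 SD (n = 7). Irf3, Irf5, Irf1 and Irf9 lie above 0 in every library, Irf8, Irf7 and Irf4 below 0, and Irf2 around 0. Open triangles are libraries without an Irf4 promoter peak, where the lowest fold enrichment of the list was used.

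The windows held from 0 (Irf2) to 17 (Irf9) other protein-coding genes. How often a neighbour's promoter is the higher one was not counted over all protein-coding genes, so what follows only describes the windows. In the Irf3, Irf5, Irf7, Irf8 and Irf9 windows, promoters of neighbours exceeded that of the IRF gene. In the Irf3 window these were led by Prmt1, an arginine methyltransferase gene (263 ± 55.7), and Ap2a1 (250 ± 51.6). In the Irf7 window the highest OCRs were at Mir210 (187 ± 37.6) and at the shared promoter of Rassf7 and Lmntd2 (137 ± 29.3). Near Irf9 they were at the shared promoter of Rnf31 and Psme2, a proteasome activator subunit gene (160 ± 35.5), and at Dcaf11 (127.9 ± 29.1). In the Irf5 window Atp6v1f had 82.8 ± 17.0, and in the Irf8 window Cox4i1 and Emc8 exceeded Irf8 as given above. By the mean over libraries, no OCR near another start exceeded the promoter of Irf1 or Irf2. The closest was the OCR at Mir7671 in the Irf1 window (86.5 ± 20.6), singled out after its values were seen, which was above the Irf1 promoter in library 1 (120.0 against 116) and in library 7 (78.3 against 77.6).

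Motifs were searched on both strands in the 150 bases on either side of the strongest summit. The letters were GAAANNGAAA for the ISRE, GGAANNGAAA for the ETS-IRF element, TTCNNNGAA for the gamma-activated site (GAS), GAGGAAGT for PU.1, AGATAA for GATA factors, TGTGGT for RUNX factors, TGANTCA for AP-1, and the CTCF core. The PU.1 word and the ETS-IRF element share GGAA and can overlap, and so can the ISRE and the ETS-IRF element, as in the Irf2 promoter above. An ISRE or ETS-IRF match was in 20 of the 237 OCRs, 8.44% against 6.18% of all merged OCRs. In distal OCRs the ETS-IRF element was in 9 of 164 (5.49% against 3.01% of all distal OCRs) and the ISRE in 5 (3.05% against 3.61%). PU.1 was in 14 (8.54% against 8.20%), GATA in 34 (20.7% against 20%), RUNX in 64 (39% against 35.5%), AP-1 in 19 (11.6% against 15.5%), GAS in 8 (4.88% against 8.0%) and the CTCF core in 11 (6.71% against 6.68%). None of the 31 distal OCRs of Irf8, the 6 of Irf4 or the 5 of Irf9 held an ISRE or ETS-IRF match in these letters. The ETS-IRF element was in 3 of the 11 of Irf5. Beside shares of 3.61% and 3.01% over all distal OCRs, counts this small are not read as differences between genes.

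Near a start, the ISRE was in 4 of 73 OCRs (5.48% against 2.81% of all such OCRs), the ETS-IRF element in 5 (6.85% against 2.59%), GAS in 5 (6.85% against 6.61%) and PU.1 in 5 (6.85% against 5.77%). GATA was in 7 (9.59% against 11.9%), RUNX in 14 (19.2% against 24.2%), AP-1 in 10 (13.7% against 9.86%) and the CTCF core in 6 (8.22% against 4.72%). In the RefSeq promoters, from 250 bases before to 50 after the start, all 8 members were found in the table, with 11 entries, and the Irf3, Irf4 and Irf5 entries held none of the motifs. A GAS match was in 3 of the 11, at Irf1, Irf2 and Irf8, and in 8.30% of 32851 promoters. The Irf1 match starts 90 bases before the RefSeq start, and the Irf8 promoter has a pair, 171 and 153 bases before it. The Irf2 entry alone held an ISRE match, 241 bases before the start (3.44% of all promoters), and an ETS-IRF match 247 bases before it (2.72%), which overlap by 4 bases. GATA was in 2 of the 11, at Irf7 and Irf9 (11.2% of all promoters). RUNX (16.8% of all promoters), AP-1 (7.81%), PU.1 (3.20%) and the CTCF core (0.874%) were in none of the 11. A match is a description of letters, and binding was not measured.

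Whether the members' OCRs held a motif more or less often than all OCRs of their class depended on the stretch searched. With 100 bases on either side of the summit, or with the whole OCR, 7 of the 16 shares stayed on the same side of the share over all OCRs, and 9 did not. The ETS-IRF element stayed above in both classes, GATA and RUNX stayed above in distal OCRs, GAS and AP-1 stayed below in distal OCRs, and the CTCF core stayed above near a start. The ISRE changed sides in both classes. With 100 bases on either side it was in 1 of 73 OCRs near a start (1.37% against 1.72%) and in 4 of 164 distal OCRs (2.44% against 2.20%).

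CpG content varied between the members. In the 300 bases around the RefSeq start, Irf2 held 19 CpG, Irf3 held 18 and the pair of Irf1 entries held 32 and 43. The Irf8 entry at its first start, where its promoter OCR lies, held 38, more than 95% of RefSeq promoters, and its other entry held 8. Irf9 held 9 and 1, and Irf4, without an OCR, held 11. The entries of Irf5 (35) and Irf7 (7) are at their first starts, not at the internal starts that carried their highest summits.

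Other genes of the interferon pathway were read by the same promoter rule. Of 52 genes found in the annotation, 38 had a promoter OCR in all 7 libraries and 10 in none, beside 54.5% and 40.0% of all protein-coding genes. Among IRF partners and regulators it was 8 of 10, from Irf2bp2, a corepressor of IRF2 (223 ± 43.9), to Spib, a PU.1 relative (4.62 ± 0.705). Of receptors and Janus kinases 8 of 9 had one, with Tyk2 at 200 ± 40.1 and Il10rb at 34.7 ± 6.65, and Ifnlr1 in none. Of the STAT genes 3 of 3 had one, with Stat3, a signal transducer of cytokine receptors, at 143 ± 24.7. Of the sensors, adaptors and kinases upstream of IRF3 and IRF7, 12 of 13 had one, with Ticam1, a Toll-like receptor adaptor, at 197 ± 35.2 and Ikbke, a kinase, at 4.26 ± 0.785. Of interferon-induced genes 6 of 14 had one, from Ifit2 (83.4 ± 17.9) down to Isg15 (12.7 ± 2.72), and 5 had none, Mx1 among them. Of 3 interferon genes, Ifnb1 had a low OCR in all 7 libraries (4.09 ± 0.850), and Ifna4 and Ifng had none.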

How the data were processed

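Bulk ATAC-seq libraries of HPC7 cells (n = 7, 1 group) were used as deposited peak lists. Per the study's methods, the authors removed adapters with Cutadapt, used BWA-mem for alignment against mm10, and obtained peaks with MACS2. The deposited lists are 1 per library. Versions and peak calling options are not given in the sources used here. The deposited lists hold the fold enrichment at the summit, the −log10 p and −log10 q values that the authors' peak caller wrote, an integer score derived by it, and the position of the summit in the peak. All fold enrichments were whole multiples of 1 step per library within a tolerance of 0.05, and that step gave the background reads and the reads at each summit. Depth was read from these, and intervals cover counting error only.

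Peaks of all libraries that shared at least 1 bp were merged into OCRs, and each OCR took the highest peak of each library. The 8 windows used a 75 kb flank and GENCODE M21, a promoter was 1 kb on either side of a start of a protein-coding transcript, and a distal OCR lay outside 1 kb of every annotated start. An OCR was named when it was the promoter OCR of a member, 1 of the 2 highest distal OCRs of a window, or, for Irf8, a distal OCR in all 7 libraries beyond 20 kb past the gene end. The strongest distal OCR under an alternative was also named where it was another one. Of other genes, at most 2 promoters per window above that of the member and at most 3 of each pathway group were named. The members and lists were chosen with earlier results of these data known. The additional Irf8 OCRs and those at Mir7671 and 25.3 kb in the Irf1 window were chosen after the values were seen. So were the OCR at 11.2 kb in the Irf9 window, the internal starts, the chromosome ratio and the fits with Irf4 left out.

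Differences in log2 fold enrichment within a library were tested with exact two-sided sign-flip permutation tests, with Benjamini-Hochberg adjustment over 28 pairs or over 8 genes. These p-values measure the spread between libraries of 1 line, which may include a difference in treatment. A library without a promoter peak took the lowest fold enrichment of its list, which decides the comparisons of Irf4 beforehand. Alternatives were other promoter widths, flanks, starts, thresholds, merging, intensity measures and motif windows, and each library left out in turn. The scripts were tested on simulated data. Mb21d1 and Mx2 had no match by symbol in the annotation and were not analysed here, and 1 gene of the pathway list is counted but not reported here by name. The tools were bedtools 2.31.1, samtools 1.23.1, pysam 0.24.0 and matplotlib 3.10.9, with SciPy 1.17.1, pandas 2.3.3 and NumPy 2.4.6 under Python 3.11.15. Motif positions and sequences were read from the RefSeq release of GRCm38.p6, whose chromosome lengths held all peaks.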

Additional observations from a re-analysis of the deposited data

Results flagged for a closer look

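Each of 33 values was examined for a library far from the other 6 by Dixon's gap ratio at its 95% critical value, which chance passes in about 1 in 20 groups, and 2 values passed. Library 1 had 21 peaks in the Irf7 window, where the next library had 15 and the lowest 12 (gap ratio 0.667). Library 1 also had a background of 20.37 reads, where the next library had 7.451 and the lowest 4.443 (gap ratio 0.811). The part of the depth of library 1 in the number of Irf7 peaks was not tested.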

How the results depend on the processing

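Of 612 alternative values, 588 kept their direction and their side of the threshold or moved by less than the set limit. These counts include the comparisons of Irf4, whose direction was decided beforehand by its missing promoter peak, so they overstate the stability. Leaving out 1 library in turn gave 26 called pairs and 7 called genes each time, Irf4 included, whose comparisons were decided by its missing peak, and the OCRs in all libraries ranged from 125 to 133. Irf1 minus Irf3, not called, ranged from -0.06373 to 0.001815 and changed sign without library 7. Divided by the chromosome ratio, an alternative chosen after seeing the data, Irf1 minus Irf2 was 0.21 (adjusted p = 0.0175, exact test), Irf1 minus Irf3 was 0.13 (0.081), Irf2 minus Irf3 was -0.08707 (0.219), Irf5 minus Irf9 was 0.30 (0.0175) and Irf2 promoter minus distal was -0.48 (0.0156). With the starts of all transcripts Irf7 minus Irf8 was -0.45, and Irf8 promoter minus distal, added after seeing the data, was -0.29 and did not pass (exact test, adjusted p = 0.0893). With a 3 kb promoter, other OCRs were the strongest distal ones of Irf7 (-36.7 kb) and Irf2 (-52.6 kb). Irf7 promoter minus distal was then 2.54, and Irf2 promoter minus distal was 0.17 and passed (exact test, adjusted p = 0.0156). Irf7 minus Irf9 was -0.16 with this width and did not pass (exact test, adjusted p = 0.113). With the summit within 1 kb, Irf3 promoter minus distal was -0.008094, against an OCR at -44.8 kb in place of the one at 70.4 kb. With Irf4 left out, chosen after seeing the data, 19 of 21 pairs and 6 of 7 genes were called. Searching the whole OCR gave 39 OCRs with an ISRE or ETS-IRF match, 16.5% against 13.7% of all merged OCRs. The cause of these shifts was not tested, apart from the starts, widths and lengths that the alternatives add. With 1 group, no replicate number links samples of different groups, and genes were compared within each library. Peaks of few reads limit the low OCRs, and a peak absent from a shallower list may be below its threshold.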
